A study of Mus musculus with 42 samples.

Results

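Unirradiated thymus of mice that carried a Trp53 allele over a null allele was compared, across all genes, with unirradiated thymus of p53-null mice. The comparison took 8 of the 42 RNA-seq libraries of the study, 6 from carriers and 2 from Null mice. The carriers were 3 Het mice (p53 +/-, with 1 wild-type allele; Het-697, Het-703 and Het-855) and 3 AD mice (p53 AD/-, with 1 mutant allele called AD; AD-700, AD-701 and AD-702). The Null mice (p53-null) were Null-859 and Null-923. Libraries are called here by genotype and mouse number. All carriers thus also had a null allele, and the labels give neither the change in the AD allele nor the part of the gene missing from the null allele. All 8 mice had germline p53 alterations, were 4 weeks old and were labelled 50% BALB/C - 50% C57BL6. The other 34 libraries came from the thymus of 16 other mice taken 4 h after irradiation (Het, AD, RP and Null, 4 each, where RP is p53 RP/-, a further mutant allele over null) and from intestine, liver and pancreas of AD and Null mice.

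The 8 libraries held 27828884 to 31944233 counts each, and 22173 genes passed the filter on low counts. Levels are given as CPM, counts scaled to the usual per-million basis on the adjusted library size, and p-values measure the spread between these few mice only. Markers of the organ were present in every library: the T cell receptor subunit Cd3e stood at 167 to 179 CPM in carriers and at 187 and 157 CPM in Null mice, and Foxn1, the transcription factor of thymic epithelium, at 6.89 to 10.02 CPM in carriers and at 8.15 and 9.41 CPM in Null mice. Sex was not in the labels. The X-inactivation RNA Xist stood at 679 to 943 CPM and the Y-linked Ddx3y at 0.629 to 8.12 CPM in AD-702, Het-703 and Null-859, and the other 5 libraries had Ddx3y at 191 to 253 CPM. Xist in those 5 was not uniformly low, at 162 CPM in Het-855, 48.9 and 49.1 CPM in AD-700 and AD-701, 7.32 CPM in Het-697 and 81.5 CPM in Null-923. Het-697 stood apart in its skeletal muscle and fat transcripts, and results that touch those genes are given with and without it.

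p53 is a transcription factor that is kept scarce in unstressed cells by the ubiquitin ligase Mdm2 and is stabilised by DNA damage. It then switches on genes of cell cycle arrest, DNA repair and cell death. The thymus is an organ in which p53 has a large role: irradiated thymocytes die by p53-dependent apoptosis, and mice without p53 are known for thymic lymphoma.

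Trp53 itself (ENSMUSG00000059552.13, GRCm38 chromosome 11, 69580359 to 69591873, + strand) was read first as a check of the labels. It stood at 39.2, 34.2 and 38.2 CPM in Het-697, Het-703 and Het-855 and at 37.6, 33.4 and 30.1 CPM in AD-700, AD-701 and AD-702, against 20.5 and 21.9 CPM in Null-859 and Null-923. Every carrier was above both Null mice, and reads of the gene were still present in both Null mice. The log2 fold change, carriers over Null, was 0.74 ± 0.09 (SE), with an adjusted p of 0.00158 (edgeR quasi-likelihood F test, Benjamini-Hochberg adjustment over all genes tested). It was 0.81 ± 0.10 for Het over Null and 0.67 ± 0.10 for AD over Null, 2 values that share the same Null libraries. Without Null-859 the difference was 0.70 ± 0.13 and its adjusted p was 0.0581. Since the labels do not say which exons are missing, a count over the whole gene does not separate transcript of the null allele from transcript of the other alleles.

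The promoters of genes at the centre of the results are shown here because the main contrast, p53 present or absent, bears on p53 binding motifs: Trp53 and Cdkn1a as the factor and its best-known target, and Ybx2, Nlrp1a and Fbxw10 as 3 of the chromosome 11 genes that separated the groups. Each is the RefSeq sequence of GRCm38.p6 over 300 bases, 250 before and 50 after a transcription start, written 5′ to 3′ on the gene's strand, and capitals mark matches to the p53 consensus decamer on either strand.
Trp53, chr11:69580109-69580408, + strand: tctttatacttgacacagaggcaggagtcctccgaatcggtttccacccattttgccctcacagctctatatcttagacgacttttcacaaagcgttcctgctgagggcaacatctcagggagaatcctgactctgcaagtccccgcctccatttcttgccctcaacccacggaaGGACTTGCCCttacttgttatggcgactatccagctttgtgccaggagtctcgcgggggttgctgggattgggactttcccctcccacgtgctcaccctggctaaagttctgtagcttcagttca
Cdkn1a, chr17:29090729-29091028, + strand: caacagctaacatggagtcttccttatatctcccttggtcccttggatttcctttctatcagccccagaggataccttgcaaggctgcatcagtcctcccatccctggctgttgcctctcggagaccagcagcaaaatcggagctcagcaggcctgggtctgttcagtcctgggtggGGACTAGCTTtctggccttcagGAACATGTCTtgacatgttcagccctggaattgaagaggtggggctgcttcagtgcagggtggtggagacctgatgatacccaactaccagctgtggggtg
Ybx2, chr11:69935649-69935948, + strand: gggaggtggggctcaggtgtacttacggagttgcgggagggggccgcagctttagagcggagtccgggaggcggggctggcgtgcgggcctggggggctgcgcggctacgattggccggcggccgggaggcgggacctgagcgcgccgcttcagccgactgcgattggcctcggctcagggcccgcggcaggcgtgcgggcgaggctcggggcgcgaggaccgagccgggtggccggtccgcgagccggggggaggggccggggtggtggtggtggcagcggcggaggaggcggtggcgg
Nlrp1a, chr11:71144655-71144954, - strand: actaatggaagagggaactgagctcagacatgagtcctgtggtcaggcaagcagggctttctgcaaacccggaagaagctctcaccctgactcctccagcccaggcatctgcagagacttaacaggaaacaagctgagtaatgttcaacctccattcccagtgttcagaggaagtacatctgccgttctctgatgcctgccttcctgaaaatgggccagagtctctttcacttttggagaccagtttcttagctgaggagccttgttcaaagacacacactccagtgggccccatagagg
Fbxw10, chr11:62846873-62847172, + strand: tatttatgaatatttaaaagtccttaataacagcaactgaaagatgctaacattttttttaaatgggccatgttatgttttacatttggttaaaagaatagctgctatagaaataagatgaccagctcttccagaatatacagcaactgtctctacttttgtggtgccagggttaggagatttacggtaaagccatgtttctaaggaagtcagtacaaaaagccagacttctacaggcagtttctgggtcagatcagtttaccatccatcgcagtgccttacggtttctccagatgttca
The Cdkn1a window held 2 matches and the Trp53 window 1, and the other 3 windows held none. Cdkn1a and Ybx2 each have a second window, at a further start, and neither of these held a match. Over all 32851 RefSeq promoter windows of this length, 8.36% held at least 1 match. Of the 31 genes called below, 18 had a window and 1 of these, Trp53, held a match. Among the 7 p53 targets named here, 4 (Cdkn1a, Bax, Mdm2 and Ccng1) held a match in a window. A match is a run of letters and not a measured binding site, and these windows leave out introns, where p53 sites also lie.

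Across all genes, 31 were called at an adjusted p under 0.05, which is 0.14% of the 22173 tested. Of these, 19 were higher (0.0857%) and 12 lower (0.0541%) in carriers. At an unadjusted p under 0.05 the count was 1813 (8.18%), 1072 higher (4.83%) and 741 lower (3.34%). Of the 31 genes, 10 lie on chromosome 11 and 5 on the X chromosome, and the others are spread over the genome. Among the gene lists, called members were Fn1, Hspg2 and Ppp1r3c of matrix and glycogen, Col5a1 of fibroblasts, Nlrp1a and Nlrp1c-ps of the inflammasome, Lpin1 of the p53 targets and Mpo of neutrophils. For all 31 genes the carrier and Null values did not overlap, which was so for 10.1% of all genes tested. The 31 were picked by a test on the same libraries, so their separation is no further evidence.

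The count depended on single libraries. It was 11 without Het-703, 15 without AD-701, 15 without Null-923, 17 without Null-859 and 286 (1.3%) without Het-697, of which 265 were higher in carriers. All 31 genes remained called without Het-697. DESeq2 called 28 of the 31, and did not call Gm13750, Gm14848 or Trav6d-3. In a fit of all 24 thymus libraries 8 were called (0.0339%), namely Trp53, Ybx2, Nlrp1a, Nlrp1c-ps, Fbxw10, Gm6685, Chic1 and Gm14848. The genes Ybx2, Nlrp1c-ps, Myh10, Trim16, Fbxw10, Chic1, Gm14848 and Gm13750 stayed called in each of the 8 fits that left out 1 library.

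Set against Null separately, Het and AD each gave 15 called genes (0.0676%), with the same 2 Null libraries on the other side. Inside the carriers, AD and Het thymus were set against each other in the same fit. No gene was called by edgeR, 775 had an unadjusted p under 0.05 (3.5%), and DESeq2 called 12. Over the 31 genes the AD minus Het difference ran from -1.92 to 1.103 on the log2 scale, and the lowest adjusted p was 0.999. Only Nnmt (0.74 ± 0.26) and Ybx2 (0.39 ± 0.18) had an unadjusted p under 0.05 there, 0.0126 and 0.0476.

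**Figure D1:**
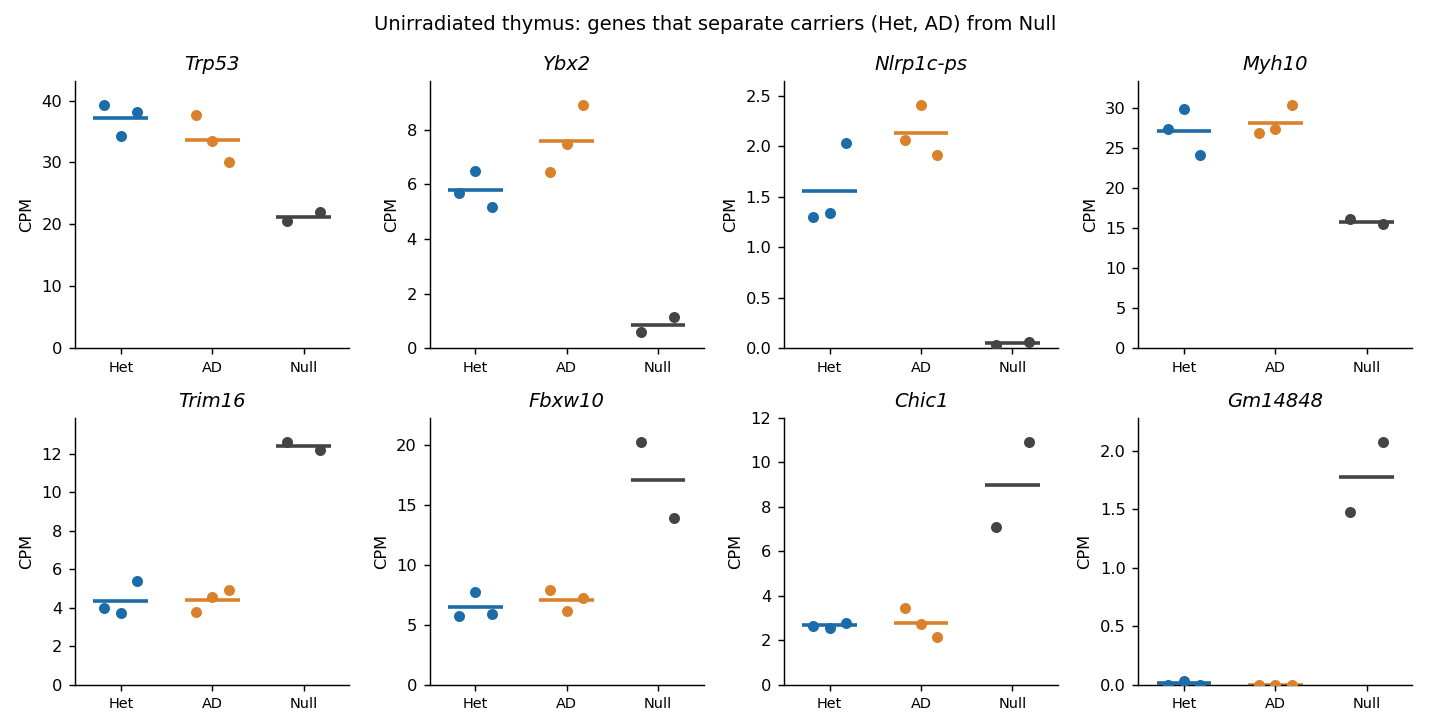
CPM of 8 genes in each unirradiated thymus library, with Het and AD mice left of Null mice. Points are mice (3, 3 and 2) and bars are group means. Trp53, Ybx2, Nlrp1c-ps and Myh10 are higher in all 6 carriers, and Trim16, Fbxw10, Chic1 and Gm14848 are higher in both Null mice.

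Called genes were more frequent close to Trp53 on chromosome 11 than elsewhere, a share given as a count and not tested. Within 1 Mb of Trp53, 3 of 95 genes tested were called (3.16%), within 10 Mb 8 of 422 (1.9%) and within 20 Mb 9 of 748 (1.2%). Each of these counts includes Trp53 itself, whose alleles define the groups, and the 3 within 1 Mb were Trp53, Ybx2 and Myh10. On the rest of chromosome 11 the share was 0.106% and on other chromosomes 0.103%. The nearest other called gene was Ybx2, which encodes an RNA-binding protein known from germ cells and lies 0.344 Mb from Trp53 (69935796 to 69941605, + strand).

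Ybx2 stood at 5.69, 6.49 and 5.17 CPM in Het-697, Het-703 and Het-855 and at 6.45, 7.47 and 8.90 CPM in AD-700, AD-701 and AD-702, against 0.598 and 1.13 CPM in Null-859 and Null-923. The lowest carrier was above the higher Null mouse, and the log2 fold change was 2.93 ± 0.25 (adjusted p 2.71e-05). Myh10 (68691559 to 68816632, + strand), the heavy chain of a non-muscle myosin, averaged 27.6 ± 2.26 CPM in carriers (SD, n = 6) and 15.8 ± 0.450 CPM in Null mice (SD, n = 2). Its log2 fold change was 0.81 ± 0.10, and it ranged from 0.77 to 0.85 when any 1 library was left out.

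The Nlrp1 genes, which encode sensors of an inflammasome, lie in a row about 1.5 Mb from Trp53, on the same side as Ybx2. Nlrp1a (71092236 to 71144704, - strand) had 40, 25 and 36 reads in Het-697, Het-703 and Het-855 and 40, 24 and 33 in AD-700, AD-701 and AD-702, against 2 and 4 in Null-859 and Null-923. Its log2 fold change was 3.49 ± 0.47 (adjusted p 0.00277), and without Null-859 it was 3.09 ± 0.60 (adjusted p 0.0725). The unprocessed pseudogene Nlrp1c-ps (71242430 to 71285232, - strand) had 37 to 78 reads in each carrier and 1 and 2 reads in Null-859 and Null-923. From the summed reads, 334 in carriers and 3 in Null mice, it was 39.2-fold higher in carriers (95% counting interval 13.3 to 191). Between them lies Nlrp1b, at 2.44 to 3.21 CPM in carriers and 1.61 and 1.64 CPM in Null mice, which was not called (0.80 ± 0.20, adjusted p 0.186). The 3 are close copies of one another, so reads could have been shared out between them in counting, and their single levels are uncertain. Of the 11 inflammasome genes listed, no other was called, among them Nlrp3 (0.39 ± 0.26) and the pore protein Gsdmd (-0.09 ± 0.07).

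On the side of Trp53 toward the chromosome start, about 6.7 Mb away, Trim16 and Fbxw10 were lower in carriers. Trim16 (62820231 to 62850808, + strand), a ubiquitin ligase of the tripartite motif family, stood at 4.00, 3.74 and 5.38 CPM in Het-697, Het-703 and Het-855 and at 3.80, 4.57 and 4.94 CPM in AD-700, AD-701 and AD-702, against 12.6 and 12.2 CPM in Null-859 and Null-923. All carriers were below both Null mice, with a log2 fold change of -1.49 ± 0.15 (adjusted p 0.000115). The F-box gene Fbxw10 (62847069 to 62877465, + strand) stood at 5.76 to 7.92 CPM in carriers and at 20.2 and 13.9 CPM in Null mice (-1.33 ± 0.15). The 2 genes overlap on the same strand, so a read in the shared stretch cannot be told apart. The myelin gene Pmp22, 6.42 Mb from Trp53, went the other way and was higher in carriers (8.88 to 12.4 against 4.72 and 5.79 CPM, log2 fold change 0.95 ± 0.16).

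The remaining called genes of chromosome 11 lay further out. Mpo, myeloperoxidase of neutrophil granules, lies 18.2 Mb from Trp53 and is described with the neutrophil genes. Gm6685, a predicted protein-coding gene 41.2 Mb away (28339104 to 28339867, - strand), had 1.51 to 2.51 CPM in carriers and 4.28 and 4.09 CPM in Null mice (-1.02 ± 0.18, adjusted p 0.0334). The 3 uncalled points with log2 fold changes of 2.04 to 4.35 near -2.3 Mb were the skeletal muscle myosins Myh1, Myh2 and Myh4, chosen for mention after their values were seen, and without Het-697 they had 1.02, 3.53 and 1.45. Myh2 stood at 27.5 CPM in Het-697, at 0.164 to 6.49 CPM in the other 5 carriers and at 0.0944 and 0.0629 CPM in Null mice.

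**Figure D2:**
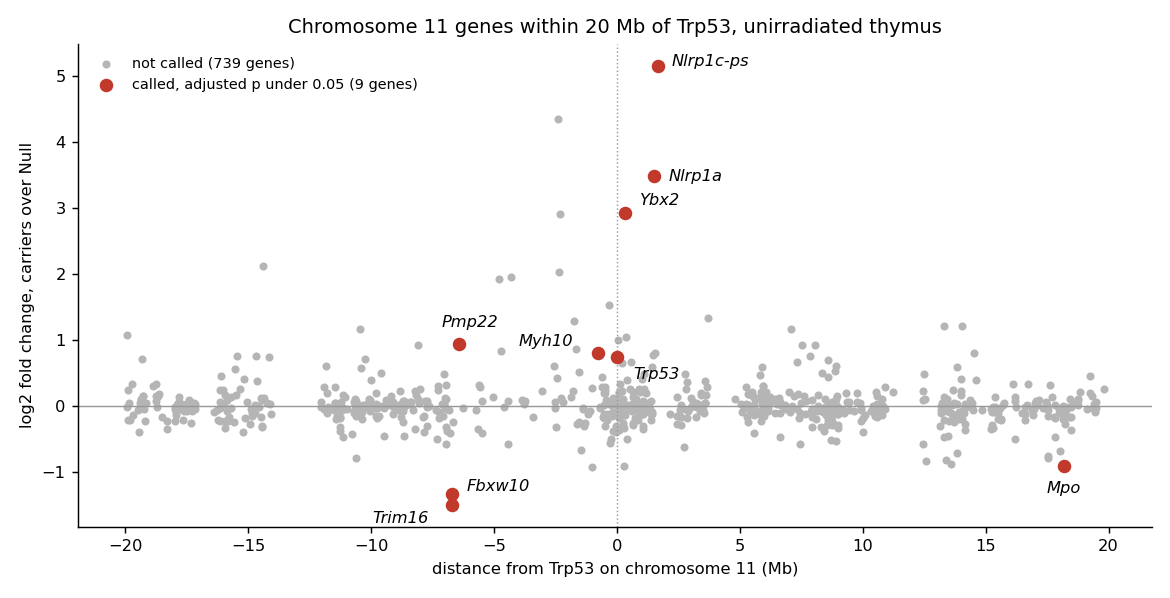
Log2 fold change, carriers over Null, of the 748 tested genes within 20 Mb of Trp53 on chromosome 11, against distance from Trp53 in Mb. Red points are the 9 called genes and grey points the others. Calls on both sides of Trp53 include Nlrp1c-ps, Nlrp1a and Ybx2 above the line and Trim16 and Fbxw10 below it.

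On the X chromosome, 5 of 706 genes tested were called (0.708%), and 3 of them, lower in carriers, lie near one another. Chic1 (103356476 to 103396092, + strand), which lies 64.3 kb from Xist, stood at 2.63, 2.57 and 2.79 CPM in Het-697, Het-703 and Het-855 and at 3.44, 2.71 and 2.15 CPM in AD-700, AD-701 and AD-702, against 7.08 and 10.9 CPM in Null-859 and Null-923. Its log2 fold change was -1.73 ± 0.19 (adjusted p 0.000263). The processed pseudogene Gm14848, 56.5 kb from Chic1, had 1 read in all 6 carriers together and 47 and 66 reads in Null-859 and Null-923. From these sums the level in Null mice was 321 times that in carriers (95% counting interval 56.5 to 12794). Tex11, a meiosis gene of testis 2297 kb from Chic1, stood at 0.0651 to 0.517 CPM in carriers and at 5.41 and 1.95 CPM in Null mice (-3.69 ± 0.49, adjusted p 0.0341), and it lost its call without AD-700, AD-701, AD-702, Het-703 or Null-859 (-4.38 to -2.77 over the 8 fits). The pair of Null mice had opposite Xist and Ddx3y patterns, and with Xist as a term in the fit the Chic1 difference was -1.80 (adjusted p 0.000175).

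Single genes elsewhere were also lower in carriers. The pseudogene Gm13750 on chromosome 1 (64150201 to 64150665) had 0 to 2 reads in each carrier and 28 and 29 reads in Null-859 and Null-923. The pseudogenes Gm1821 on chromosome 14 (46084028 to 46085000) and Tmem181b-ps on chromosome 17 (6438524 to 6467022) were lower in carriers by smaller amounts. Gm1821 had 3.55 to 5.20 against 8.53 and 8.05 CPM (-0.88 ± 0.15), and Tmem181b-ps 22.7 to 30.3 against 39.1 and 40.1 CPM (-0.59 ± 0.09). Reads of such copies can also match their parent genes, so their levels are uncertain. The immunoglobulin E constant gene Ighe had 8.21 to 13.9 CPM in carriers and 19.1 and 24.1 CPM in Null mice (-0.98 ± 0.16), and the T cell receptor segment Trav6d-3 had 5 to 9 reads in each carrier and 29 and 28 in Null mice. Trav6d-3 was called in 1 of the 8 fits with a library left out and Ighe in 3. Gm1821 and Tmem181b-ps were called in 4 of the 8, and lost their calls without AD-701, Het-703, Null-859 or Null-923.

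**Figure D3:**
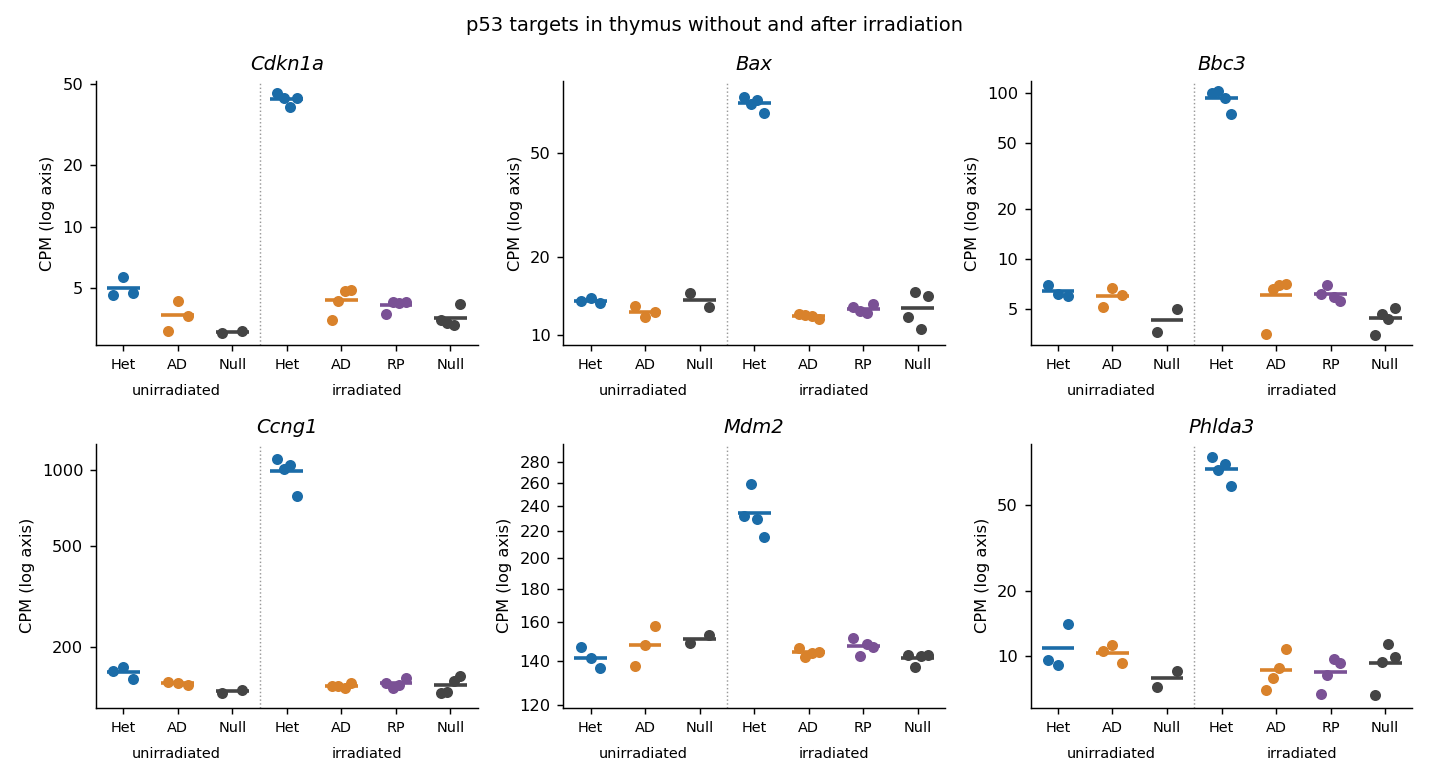
CPM on log axes of 6 p53 targets in unirradiated thymus (left of the dotted line) and in the thymus of other mice taken after irradiation (right of it). Points are mice and bars group means. The unirradiated groups lie close together, and irradiated Het thymus stands above the other groups.

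Of the genes that p53 is known to activate, 1 was called between carriers and Null thymus without irradiation. None of 29 tested targets of cell cycle arrest and repair and none of 20 targets of apoptosis was called, and 1 of 16 targets of metabolism was. Their median log2 fold changes were -0.01, 0.02 and 0.06, beside -0.0021 over all genes tested. At an unadjusted p under 0.05, 3 were higher and 2 lower among the arrest and repair genes, 1 was higher and 1 lower among the apoptosis genes, and 3 were higher among the metabolism genes. Over all genes tested, 4.83% were higher and 3.34% lower at that threshold.

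Cdkn1a, the cyclin-dependent kinase inhibitor p21 (chromosome 17, 29090976 to 29100727, + strand), stood at 4.65, 5.66 and 4.72 CPM in Het-697, Het-703 and Het-855 and at 3.08, 4.35 and 3.66 CPM in AD-700, AD-701 and AD-702, against 3.02 and 3.08 CPM in Null-859 and Null-923. All 3 Het mice were above both Null mice, and AD-700 lay inside the Null range. The difference of carriers from Null was 0.50 ± 0.18 (adjusted p 0.455). For Het alone it was 0.71 ± 0.20 (adjusted p 0.341) and for AD alone 0.28 ± 0.20 (adjusted p 0.814).

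The cell death gene Bbc3 (Puma) had 5.14 to 6.96 CPM in carriers and 3.65 and 5.0015 CPM in Null mice, without overlap (0.52 ± 0.17, adjusted p 0.377). The cyclin Ccng1 had 142 to 166 CPM in carriers and 132 and 135 CPM in Null mice (0.18 ± 0.06, adjusted p 0.409), and the Akt inhibitor Phlda3 had 9.07 to 14.1 CPM in carriers and 7.18 and 8.56 CPM in Null mice (0.43 ± 0.16, adjusted p 0.466). These 3 did not overlap between the groups, which was so for 10.1% of all genes tested, and none was called. The pore-forming death gene Bax (-0.08 ± 0.10), the ligase Mdm2 (-0.06 ± 0.07) and the receptor Eda2r (0.46 ± 0.37) overlapped between the groups. The 1 called target was Lpin1, a phosphatidate phosphatase of lipid synthesis, at 41.8 to 52.9 CPM in carriers and 36.2 and 32.3 CPM in Null mice (0.49 ± 0.09, adjusted p 0.0490), and it stayed called in 2 of the 8 fits with a library left out. None of 17 p53 regulators and family members was called; Cdkn2a, which encodes the Mdm2 inhibitor Arf, had 0.325 to 0.819 CPM in carriers and 0.157 and 0.566 CPM in Null mice.

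Further called genes, higher in carriers, included several of the extracellular matrix. Perlecan (Hspg2), a proteoglycan of basement membranes, stood at 43.9, 48.2 and 63.7 CPM in Het-697, Het-703 and Het-855 and at 48.6, 54.5 and 47.0 CPM in AD-700, AD-701 and AD-702, against 29.2 and 30.1 CPM in Null-859 and Null-923 (0.78 ± 0.12, adjusted p 0.0371). Fibronectin (Fn1) had 85.4 to 110 CPM in carriers and 56.9 and 70.7 CPM in Null mice (0.63 ± 0.10), and the collagens Col5a1 (0.73 ± 0.11) and Col4a5 (1.18 ± 0.21) were also higher. In each of these 4 genes all carriers were above both Null mice.

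Cavin2, a coat protein of caveolae, had 8.95 to 16.2 CPM in carriers and 6.55 and 5.82 CPM in Null mice (1.12 ± 0.19). The Wnt receptor Fzd4 (1.01 ± 0.19) and the hypoxia factor Epas1 (0.86 ± 0.15) were higher as well. Dystrophin (Dmd, 0.87 ± 0.15), Jph2 of muscle membrane junctions (2.56 ± 0.46) and the kinase Mylk4 were higher too, and none of these genes is in the endothelial or muscle list, where no gene was called. Mylk4 had 119 reads in carriers together and 3 in Null mice, a 14.0-fold higher level in carriers (95% counting interval 4.66 to 68.6), and Het-697 had the highest value, 1.20 CPM. Without Het-697 the log2 fold change was 2.44 ± 0.45 for Jph2 (adjusted p 0.00898) and 3.45 ± 0.64 for Mylk4 (adjusted p 0.00793). Ppp1r3c, which targets a phosphatase to glycogen, had 4.19 to 8.03 CPM in carriers and 1.98 and 1.86 CPM in Null mice (1.59 ± 0.25), and the methyltransferase Nnmt 0.781 to 1.95 against 0.346 and 0.503 CPM (1.69 ± 0.32). Most of these calls rested on single libraries: Ppp1r3c was called in 6 of the 8 fits with a library left out, Col5a1 in 5, Pmp22 and Dmd in 4, Fn1, Cavin2, Epas1 and Mylk4 in 3, Hspg2, Fzd4, Col4a5 and Jph2 in 2 and Nnmt in 1, with the sign unchanged in all.

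Summed fat cell transcripts were higher in the carriers other than Het-697. For the single genes Hspg2, Fn1, Col5a1, Col4a5 and Adipoq, Het-697 too was above both Null mice. The 20 adipocyte markers summed to 372, 954 and 1400 CPM in Het-697, Het-703 and Het-855 and to 931, 1116 and 1071 CPM in AD-700, AD-701 and AD-702, against 378 and 308 CPM in Null-859 and Null-923. Het-697 was within the Null range and the other 5 carriers were above it, and no marker of the list was at 0 in all libraries. The fat hormone Adipoq stood at 14.2, 29.2 and 30.8 CPM in Het-697, Het-703 and Het-855 and at 27.0, 35.5 and 31.8 CPM in AD-700, AD-701 and AD-702, against 8.78 and 8.68 CPM in Null-859 and Null-923 (1.67 ± 0.34, adjusted p 0.290). None of the 20 markers was called, while 14 had an unadjusted p under 0.05, all higher, and the median log2 fold change was 1.47. Over all genes tested, 4.83% were higher at that threshold. Without Het-697, 14 of the 20 were called, beside 1.3% of all genes, and the median was 1.64. In a bulk sample, fewer cells of a type and less RNA per cell cannot be told apart.

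The other stromal lists shifted by less. Of 20 fibroblast markers 1 was called (Col5a1), 14 had an unadjusted p under 0.05, all higher, and the median was 0.48; Col1a1 stood at 60.3 to 103 CPM in carriers and at 34.3 and 42.7 CPM in Null mice. Of 14 endothelial markers none was called, 8 had an unadjusted p under 0.05, all higher, and the median was 0.45. Of 23 genes of matrix and glycogen 3 were called (Fn1, Hspg2 and Ppp1r3c) and the median was 0.43. Of 34 genes of PPAR signalling and fatty acid oxidation none was called, 17 had an unadjusted p under 0.05, all higher, and the median was 0.35, with Pdk4 (1.92 ± 0.96), Ppara (1.89 ± 0.71) and Ucp3 (1.56 ± 0.44) among the largest. In the fit of all 8 libraries, 4.83% of all genes were higher at an unadjusted p under 0.05. Without Het-697 the calls were 6 of 20, 4 of 14, 8 of 23 and 18 of 34, beside 1.3% of all genes. With 1 Null mouse left in the fit, only medians of these lists are given. Without Null-859 they were 0.33 (fibroblast), 0.37 (endothelial), 0.41 (matrix and glycogen), 0.39 (PPAR) and 1.71 (adipocyte). Without Null-923 they were 0.63, 0.49, 0.54, 0.37 and 1.42 in the same order. These lists were chosen with earlier results of these libraries known, so their direction is no independent evidence.

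The summed muscle markers were highest in Het-697. The sum was 631.3 CPM in Het-697, 125 to 181 CPM in the other 5 carriers, and 92.1 and 109 CPM in Null mice. The contractile genes Myh4 (160 CPM) and Acta1 (108 CPM) made up much of the Het-697 value. With it in the fit none of 13 markers tested was called, 3 had an unadjusted p under 0.05, all higher, and the median was 1.56. Over all genes tested, 4.83% were higher at that threshold. Without Het-697, 3 markers were called, beside 1.3% of all genes, and the median was 1.0045. Of 9 nerve and Schwann cell markers tested none was called.

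When the Adipoq level of each library was added to the fit as a term, 11 genes were called in all (0.0496%), and of the 31 only Ybx2 and Nlrp1c-ps remained. With the term the log2 fold change was 0.01 for Cavin2, 0.09 for Epas1, 0.21 for Hspg2, 0.21 for Col5a1 and 0.05 for Lpin1, all nearer 0 than without it. It was 0.94 ± 0.21 for Trp53 (adjusted p 0.225), 0.86 for Myh10, 4.09 for Nlrp1a, -1.89 for Trim16 and -1.50 for Fbxw10, all further from 0 than without it. The muscle genes Jph2 (2.98) and Mylk4 (5.04) were also further from 0, while on chromosome 11 Pmp22 (0.32), Nlrp1c-ps (4.50), Ybx2 (2.86) and Gm6685 (-0.94) were nearer to it. The medians of the adipocyte, endothelial and PPAR lists were -0.62, -0.43 and -0.45 with the term. Those of oxidative phosphorylation (-0.0996) and of B and plasma cells (-0.58) were also negative with it, and the muscle median was 5.16. Adipoq itself separated the groups, so the fat level and the genotype cannot be told apart fully in this fit, and the part of fat in these results was not tested further.

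**Figure D4:**
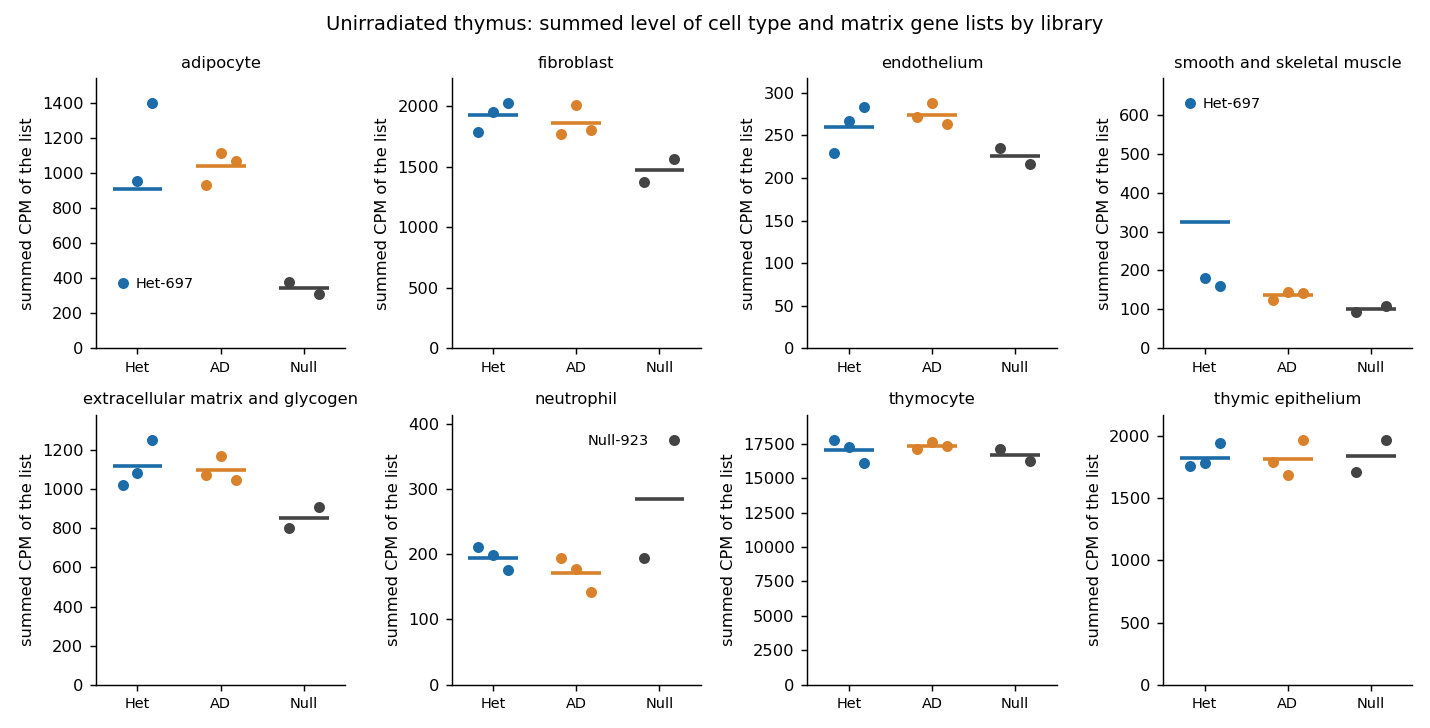
Summed CPM of 8 gene lists in each unirradiated thymus library, with Het and AD mice left of Null mice. Points are mice and bars group means. Adipocyte sums are 931 to 1400 in 5 carriers and 372 in Het-697, beside 378 and 308 in Null mice; Het-697 leads the muscle list and Null-923 the neutrophil list.

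All 16 neutrophil markers had negative log2 fold changes, 7 of them with an unadjusted p under 0.05, at a median of -0.61. Over all genes tested, 3.34% were lower at that threshold. Without Null-923, 6 of the 16 were above 0 and the median was -0.07. Mpo, myeloperoxidase, had 2.90, 3.19 and 3.41 CPM in Het-697, Het-703 and Het-855 and 3.70, 3.18 and 3.19 CPM in AD-700, AD-701 and AD-702, against 5.04 and 7.23 CPM in Null-859 and Null-923 (-0.91 ± 0.17, adjusted p 0.0476). It was the 1 of 16 neutrophil markers that was called, and it lost the call without Null-923, among others (-1.15 to -0.62 over the 8 fits). A further protease of these granules, Prtn3, had 1.02 to 1.63 CPM in carriers and 2.08 and 3.49 CPM in Null mice (-1.13 ± 0.25, adjusted p 0.105). The whole list summed to 143 to 211 CPM in carriers and to 194 and 375 CPM in Null-859 and Null-923. Null-859 was thus inside the carrier range and Null-923 above it. The summed level of 11 red cell genes was 507 to 928 CPM in carriers, against 349 CPM in Null-859 and 1125 CPM in Null-923, so Null-923 was the highest there too.

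Lists of thymus cell types held no called gene. Of 22 thymocyte genes none was called and the median was 0.02; their sum was 16130 to 17794 CPM in carriers and 17117 and 16248 CPM in Null mice. Rag1, a recombinase of T cell receptor genes, stood at 3820 to 4208 CPM in carriers and 3754 and 3575 CPM in Null mice (0.14 ± 0.07, adjusted p 0.590). Of 18 thymic epithelial genes none was called (median -0.03), nor was any of 14 genes of mature T cells (-0.0023), 16 of B and plasma cells (0.08), 18 of macrophages and dendritic cells (0.06), 13 of cytotoxic cells (-0.13), 10 of red cells (-0.23, or 0.49 without Null-923 and -0.81 without Null-859), 10 of hepatocytes (0.04) and 5 of the parathyroid (-0.05).

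Of 26 replication genes none was called and all 26 had negative values, 11 of them with an unadjusted p under 0.05, at a median of -0.16. Over all genes tested, 3.34% were lower at that threshold. The licensing factor Cdc6 had 52.4 to 71.1 CPM in carriers and 73.6 and 84.0 CPM in Null mice (-0.33 ± 0.10, adjusted p 0.327). The median of the list was -0.15 without Het-697 and -0.25 without Null-859. Without Null-923 it was -0.07, with 3 of the 26 above 0. Of 20 mitosis genes none was called, and the median was -0.10, or 0.00079 without Null-923. Of 22 interferon-stimulated genes none was called and the median was -0.15, or -0.06 with 1 call without Null-923; the lowest value was that of Xaf1, an apoptosis-associated gene that itself lies 2.71 Mb from Trp53, with 12.7 to 18.02 CPM in carriers and 28.3 and 16.7 CPM in Null-859 and Null-923 (-0.62 ± 0.18, adjusted p 0.342). The lists of oxidative phosphorylation (0.11), the clock (0.13), immediate early genes (0.04), glycolysis (-0.03) and cholesterol synthesis (-0.02) held no called gene.

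The same contrast was read in irradiated thymus of other mice, which share no library with the 8 above. There 1746 of 22206 genes were called for the mean of Het and AD over Null (7.86%). Het over Null alone gave 4257 called genes, 14 of them among the 31 of unirradiated thymus. AD over Null alone gave 6, and 4 of these were among the 31 (Trp53, Ybx2, Nlrp1a and Nlrp1c-ps). Of the 31 genes 29 were tested there. For the mean of Het and AD none was called with the opposite sign, and 10 were called with the same sign, 32.3% of the 31 and 0.573% of the 1746. Of the 9 called genes within 20 Mb of Trp53, 7 were among these 10 (Trim16, Fbxw10, Myh10, Trp53, Ybx2, Nlrp1a and Nlrp1c-ps). Of the 22 others, 3 were among the 10 (Gm6685, Lpin1 and Gm1821). Irradiated Lpin1 was high in Het mice only, at 105 to 112 CPM. It had 39.3 to 49.4 CPM in AD and 39.5 to 41.3 CPM in RP mice, overlapping 34.3 to 45.5 CPM in Null mice. For RP over Null, a genotype absent from the unirradiated set, 7 genes were called in all (0.0315%), and 5 of them were Trp53, Ybx2, Nlrp1a, Nlrp1c-ps and Gm6685.

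Ybx2 had 5.25 to 17.2 CPM in irradiated Het, 11.7 to 15.4 CPM in AD and 9.99 to 13.4 CPM in RP mice, against 0.615 to 1.58 CPM in Null mice. Xaf1, not called without irradiation, was lower in irradiated carriers (-0.87 ± 0.12, adjusted p 0.000211), with 11.5 to 20.7 CPM in Het, AD and RP mice together and 28.0 to 33.1 CPM in Null mice. Null-859 of the unirradiated set was at the level of these Null mice and Null-923 inside the range of the carriers.

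One irradiated Null mouse, Null-593, had carrier-like levels at some of these genes. Trim16 stood at 2.43 to 5.22 CPM in the 12 irradiated Het, AD and RP mice, against 3.24 CPM in Null-593 and 13.2, 11.8 and 10.8 CPM in Null-604, Null-856 and Null-857. Fbxw10 stood at 6.83 to 10.7 CPM in the 12, against 7.99 CPM in Null-593 and 14.4, 18.4 and 15.8 CPM in the others. For Ybx2 (0.615 CPM), Nlrp1a (0.162 CPM) and Trp53 (18.9 CPM), by contrast, Null-593 lay with the other Null mice.

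**Figure D5:**
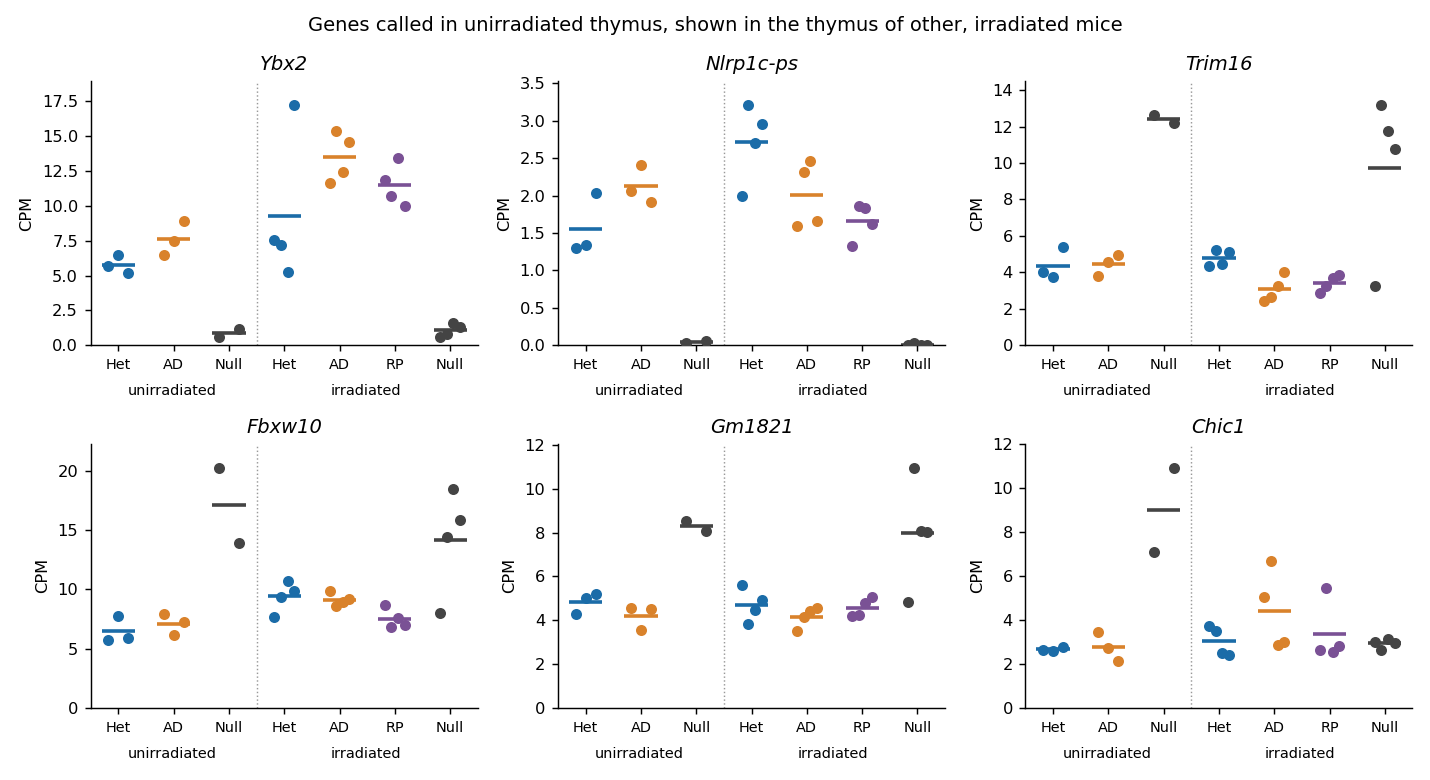
CPM of 6 genes in unirradiated thymus (left of the dotted line) and in the thymus of other, irradiated mice (right of it). Points are mice and bars group means. Ybx2 and Nlrp1c-ps separate Null mice in both sets, 1 irradiated Null mouse (Null-593) lies with the carriers for Trim16, Fbxw10 and Gm1821, and Chic1 is high in the Null mice of the unirradiated set and not in those of the irradiated set.

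Whether the carrier difference itself changed with irradiation was tested in 1 fit of all 24 thymus libraries. The unirradiated minus irradiated difference was called for 116 of 23605 genes (0.491%), 7 of them positive and 109 negative. Among the p53 targets named here it was called for Cdkn1a (-1.43 ± 0.18), Bax (-1.33 ± 0.12), Bbc3 (-1.91 ± 0.25), Ccng1 (-1.22 ± 0.11) and Mdm2 (-0.44 ± 0.08), and not for Phlda3 (-1.0002 ± 0.24, adjusted p 0.0657) or Eda2r (-1.05 ± 0.39, adjusted p 0.390). In the irradiated libraries the high values were in Het mice: Cdkn1a stood at 38.6 to 44.9 CPM in irradiated Het, at 3.48 to 4.91 CPM in AD and at 3.75 to 4.28 CPM in RP mice, against 3.31 to 4.20 CPM in Null mice.

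Of the 31 genes, 2 differed between unirradiated and irradiated thymus by this test, Chic1 (-2.04 ± 0.36, adjusted p 0.00402) and Gm14848 (adjusted p 0.0304). In the irradiated set the highest Chic1 values were in AD-630 (5.03 CPM), AD-633 (6.69 CPM) and RP-653 (5.47 CPM), against 2.63 to 3.13 CPM in the 4 Null mice. The high level of Null-859 and Null-923 was thus not found in those Null mice. In AD-630, AD-633 and RP-653, Gm14848 had 0.507, 0.686 and 0.265 CPM. Gm14848 was otherwise seen in Het-594 (0.2096 CPM) and Null-857 (0.0333 CPM) and was listed at 0 in the other 11 irradiated libraries. The difference was not called for Trp53 (-0.0040 ± 0.10, adjusted p 0.996), Myh10 (0.02 ± 0.23, adjusted p 0.989) or Trim16 (-0.16 ± 0.37, adjusted p 0.954). For Adipoq it was not called either (1.81 ± 0.72, adjusted p 0.465). Adipoq had 4.94 to 39.1 CPM in irradiated Het and 15.98 to 33.8 CPM in AD mice, against 10.9 to 38.8 CPM in Null mice (-0.13 ± 0.45, adjusted p 0.915).

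Intestine, liver and pancreas of the same AD and Null mice, with the further Null mouse Null-1087, were read for the genes called in thymus, and only part of the thymus differences were found there. In intestine, where 3 of 20011 genes were called for AD over Null (0.015%), Nlrp1c-ps had 1.44, 2.20 and 1.99 CPM in AD-700, AD-701 and AD-702 and no read in the 3 Null mice (adjusted p 0.00879). Nlrp1b had 17.4, 17.6 and 12.3 CPM in AD-700, AD-701 and AD-702, against 2.08, 1.07 and 1.48 CPM in Null-859, Null-923 and Null-1087 (3.33 ± 0.25, adjusted p 0.00186). In liver Nlrp1b lay the other way without overlap, at 0.827, 0.590 and 0.561 CPM in AD-700, AD-701 and AD-702, against 1.43, 1.25 and 1.55 CPM in Null-859, Null-923 and Null-1087, and was not called (-1.09 ± 0.39, adjusted p 0.407). Trp53 in intestine was at 14.6 to 15.7 CPM in AD mice and 9.52 to 10.1 CPM in Null mice, but was not called (0.61 ± 0.10, adjusted p 0.199), and its difference was 0.19 ± 0.22 in liver and -0.31 ± 0.22 in pancreas. In intestine Nlrp1a, Gm6685 and Gm1821 differed in the same direction as in thymus, without overlap of AD and Null mice. Nlrp1a had 2.99 ± 0.40 (adjusted p 0.0669), Gm6685 -1.30 ± 0.30 and Gm1821 -1.04 ± 0.19, and none was called. Gm6685 was also lower without overlap in pancreas, where Nlrp1a and Gm1821 overlapped. In liver Gm6685 and Gm1821 overlapped. Trim16 in intestine was at 30.3 to 33.9 CPM in AD mice and 28.1 to 35.1 CPM in Null mice, with full overlap. Ybx2 in intestine was at 1.54 to 2.30 CPM in AD mice and 1.77 to 3.25 CPM in Null mice (-0.32 ± 0.27).

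Genes near Xist were read in the same tissues. In intestine Gm14848 had no read in the 3 AD mice and in Null-1087, and 0.0830 and 0.119 CPM in Null-859 and Null-923. Chic1 in intestine had 9.05 to 10.3 CPM in AD mice, 12.1 and 16.8 CPM in Null-859 and Null-923 and 8.10 CPM in Null-1087. In pancreas Gm14848 had again no read in AD mice and Null-1087, and 0.0479 and 0.101 CPM in Null-859 and Null-923, while in liver Null-1087 also had reads (0.0950 CPM). Xaf1 was highest in Null-859 in each tissue: in liver it had 5.31 to 6.35 CPM in AD mice, 13.7 CPM in Null-859, 5.48 CPM in Null-923 and 7.47 CPM in Null-1087, and in pancreas 0.628 to 1.20 CPM in AD mice, 2.97 CPM in Null-859, 1.31 CPM in Null-923 and 1.32 CPM in Null-1087. Tmem181b-ps in pancreas was at 4.86 to 5.86 CPM in AD mice and 8.94 to 10.8 CPM in Null mice, without overlap but not called (-0.80 ± 0.17, adjusted p 0.156).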

How the data were processed

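The authors deposited 1 table of counts of reads per gene (49585 genes, 42 libraries, raw and not normalized); per the submitters' processing notes STAR 2.6.0b, the GRCm38 build and DESeq2 were used, while the counter and its annotation are not given in the sources used here. The 8 unirradiated thymus columns carry no tissue in their names and were matched by animal number as the only columns left for those mice. Of the gene IDs 49326 matched GENCODE M21 for names and positions and 259 did not.

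Counts were filtered (filterByExpr), scaled (TMM) and tested with edgeR 4.0.16 (quasi-likelihood F test, robust) in R 4.3.3 with limma 3.58.1. The 8 libraries entered as 3 groups, and the mean of Het and AD was set against Null. Standard errors are the log2 fold change divided by the root of F, and calls need a Benjamini-Hochberg adjusted p under 0.05. Fold changes use the default prior count of edgeR. A prior count of 2 was used only for the log2 levels of Xist and Adipoq that entered fits as terms. Intervals on read ratios are exact, at 95%, and cover counting error only. Irradiated thymus (16 libraries, 22206 genes), all thymus (24 libraries, 23605 genes, for the difference between the 2 conditions) and the other tissues were fitted likewise.

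On simulated data for the 8 libraries (22173 genes) the test called 34 of 67 genes changed 1.5-fold, 56 of 67 changed 2-fold and 65 of 66 changed 4-fold, with 11 false calls among 166. The changed genes were drawn only from those above a floor on mean CPM, so these rates do not cover genes of the lowest levels. Alternatives were DESeq2 1.42.0, RLE scaling, no count filter, Het and AD pooled, all 24 thymus libraries, an Xist or Adipoq term and leaving out each library. The genes named are Trp53 and 7 p53 targets, every called gene, up to 4 members of each of 30 gene lists and 6 cell markers. Xaf1, Nlrp1b, Nlrp3, Gsdmd, Rag1, Cdkn2a, Acta1, Myh1, Myh2 and Myh4 were added or kept with their values known. The comparison, its genes and the lists were chosen with earlier results of these data known. Counts of replicate libraries differed by more than sampling noise (chi-square per degree of freedom 7.38 to 16.4), so none was counted as a duplicate.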

Additional observations from a re-analysis of the deposited data

Results flagged for a closer look

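Single libraries stood far from the rest of their group in 15 of 124 groups of values tested, where chance flags about 1 group in 20. That rate does not hold where the rest of a group is at 0, as for Gm14848 and for Nlrp1c-ps in irradiated Null mice. There a few reads set the flag, so the 15 cannot be weighed against it. Among the 6 unirradiated carriers, Het-697 was high for Mylk4 (1.20 CPM) and for the summed muscle markers (631.3 CPM), AD-700 for the cytotoxic cell markers (129 CPM) and AD-702 for the cholesterol synthesis genes (932 CPM). Het-703 held the only read of Gm14848 (0.0363 CPM).

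In irradiated thymus the libraries that stood apart were Het-631 for Myh10 (60.3 CPM), Tex11 (6.30 CPM) and Gm13750 (0.225 CPM), Null-593 for Myh10 (27.0 CPM), Null-604 for Nlrp1c-ps (0.0333 CPM) and Null-856 for Gm13750 (0.850 CPM). RP-653 stood apart for Chic1 (5.47 CPM) and Gm14848 (0.265 CPM), and Gm14848 also for Het-594 (0.2096 CPM) and Null-857 (0.0333 CPM).

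The carrier difference was not the same in unirradiated and irradiated thymus, by the interaction test, for 7 of the named genes. The unirradiated minus irradiated value was -1.43 for Cdkn1a, -1.33 for Bax, -1.91 for Bbc3, -0.44 for Mdm2, -1.22 for Ccng1 and -2.04 for Chic1. For Gm14848 it was -11.2, a fitted value that rests on a group with almost no reads and gives no bound.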

How the results depend on the processing

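With 2 Null mice, the calls rest on few libraries. A gene with a mean above 1 CPM that changed 1.5-fold was recovered in simulation about as often as not. The count of 31 genes called in unirradiated thymus was 31 with RLE scaling and 35 with Het and AD pooled, but 469 with no count filter, 214 with DESeq2 (187 higher), 49 with an Xist term, 11 with an Adipoq term and 8 with all 24 thymus libraries in the fit; leaving out 1 library gave 11 to 286. DESeq2 kept 28 of the 31 and the fit without a filter kept all 31. Between AD and Het, where edgeR called none, 16 were called with no filter, 12 with DESeq2, 2 with the Xist term, 1 with the Adipoq term, 1 with all 24 libraries and 0 to 8 with a library left out. The count of genes whose difference changed with irradiation was 116, with DESeq2 236, and with a library left out 49 to 196 (49 without Null-923, 69 without Null-859, 196 without the irradiated Het-631). In irradiated thymus the count of 1746 ranged from 1097, without Null-604, to 2481. The Trp53 difference was 0.94 with the Adipoq term (adjusted p 0.225) and 0.70 to 0.79 with a library left out. With the Adipoq term the sign turned for Phlda3 (-0.017), Eda2r (-0.48) and the medians of the adipocyte (-0.62), endothelial (-0.43) and PPAR (-0.45) lists. Medians of unrelated lists turned too, among them oxidative phosphorylation (0.11 to -0.0996), mitosis (-0.10 to 0.09) and B and plasma cells (0.08 to -0.58). The muscle median went from 1.56 to 5.16, and the cause of these shifts was not tested. No paired analysis was possible because carriers and Null mice are different animals and share no animal number.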
